A study of Rattus norvegicus with 252 samples.

Results

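The 6 genes described here are those by which medium spiny neurons, the projection neurons of the striatum, are usually recognised. They were taken from a supplied list of symbols and Ensembl rat identifiers, Drd1 (ENSRNOG00000023688), Drd2 (ENSRNOG00000008428), Penk (ENSRNOG00000008943), Tac1 (ENSRNOG00000007374), Adora2a (ENSRNOG00000001302) and Ppp1r1b (ENSRNOG00000028404), on the condition that each be highest in wild-type striatum, and all 6 of the 32883 genes listed met it. The pairing of symbols with identifiers comes from that list, since the expression tables hold identifiers only. They were followed through 240 RNA-seq libraries of striatum, cortex, hippocampus and cerebellum from heterozygous Q130 knock-in (Q130) and wild-type (WT) Long Evans rats aged 2, 6 or 12 months. The Q130 rat is a model of Huntington's disease. Each group held 10 animals, 5 males and 5 females, and each of the 60 animals gave 1 library per tissue. The column names of the forebrain tissues carry an R, taken here to mean the right hemisphere. The labels give no treatment for any group. The 2- and 6-month libraries were labelled batch 1 and the 12-month libraries batch 2, and 12 male striata of 2 and 6 months had a second library in batch 2.

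Medium spiny neurons fall into a direct and an indirect output pathway of the basal ganglia. Direct-pathway cells carry the dopamine D1 receptor (Drd1) and make substance P from the tachykinin precursor Tac1, whereas indirect-pathway cells carry the dopamine D2 receptor (Drd2) and an adenosine receptor (Adora2a) and make enkephalin from the precursor Penk. Ppp1r1b encodes DARPP-32, a phosphatase inhibitor downstream of dopamine that is abundant in both. In Huntington's disease these cells are the most affected, and lower messenger RNA of their receptors and peptides is a widely used sign of the disease in patients and in rodent models.

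Library totals ran between 25.3 M and 50.8 M counts, so the members were counted far above the detection limit in striatum. In 9 libraries, 8 of them Q130, the median correlation with the other libraries of the labelled tissue was below 0.97 (0.859 to 0.962, against 0.973 or more elsewhere). Most ranges, estimates and calls that rest on these libraries are given with and without them. Ratios between members leave them out, and WT levels and folds by tissue include them. The library labelled Q130 striatum of 6 months, male 1, correlated better with hippocampus (median r = 0.986) than with striatum (0.939), and the library labelled hippocampus of the same animal, numbered male 5 in that tissue, correlated better with striatum (0.983) than with hippocampus (0.933). Among 12-month Q130 striata, the library of female 2 correlated better with hippocampus (0.976) than with striatum (0.961), and that of male 3 correlated poorly with every tissue (0.859 with striatum). The edited gene itself was not analysed here, so the genotype labels rest on the submitters' word.

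Of the 12 second libraries of batch 2, 10 go against their labels. By the deviation of 11489 genes from the group means, 2 of the 12 correlated best with the first striatal library of the animal they are labelled as, and 10 correlated best with another animal's, with r of 0.40 to 0.79 against -0.41 to 0.31 for the labelled animal. The 12 best matches were 12 distinct animals. A set of 50 genes that vary between animals in cortex and cerebellum alike, none of them a member, gave the same best animal for all 12. Of these best matches 6 carried the other genotype label and 4 the other age label. Whether libraries or column names were exchanged cannot be told apart. By the same 50 genes, which cortex and cerebellum served to choose, 59 of 60 striatal study libraries and all 60 of each other tissue matched their own animal, the exception being Q130 female 2 of 12 months (r of 0.29 with its own animal and 0.41 with another). The genotype values given here rest on the 240 study libraries, and the second libraries enter genotype values in named alternatives only.

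All 6 members were far higher in WT striatum than in any other WT tissue, at every age. In TPM, which scales a gene's reads by its length and by the library, WT striata of 2 months averaged 1821.1 TPM for Ppp1r1b, 1095.2 for Penk, 257.6 for Adora2a, 250.8 for Tac1, 165.5 for Drd2 and 112.5 for Drd1 (n = 10). By mean level at 2 months Ppp1r1b ranked 28th and Penk 54th of the 32883 genes, against 412th for Adora2a, 426th for Tac1, 708th for Drd2 and 1129th for Drd1. Adora2a and Tac1 are neighbours in this order whose means lay within their spread.

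Adora2a and Drd2 were the members with the largest gap between striatum and the next tissue. Adora2a in WT striatum was 58.7-, 43.6- and 46.6-fold above the next tissue at 2, 6 and 12 months, and Drd2 was 52.4-, 49.6- and 54.9-fold above it. The fold was 19.4, 19.0 and 19.7 for Drd1, 15.8, 12.0 and 14.4 for Tac1 and 15.1, 13.8 and 14.3 for Penk. It was smallest for Ppp1r1b, at 8.001, 8.22 and 7.89, because this gene also reached 227.6, 226.6 and 210.0 TPM in WT cerebellum. No WT library of another tissue reached the lowest WT striatal library for any member at any age. The highest other library for Drd1 at 2 months had 7.01 TPM, against 92.06 TPM in the lowest striatum, and for Ppp1r1b it had 259.9 TPM, against 1426.2 TPM. These levels describe the members, since being highest in striatum was the condition for including them.

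**Figure D1:**
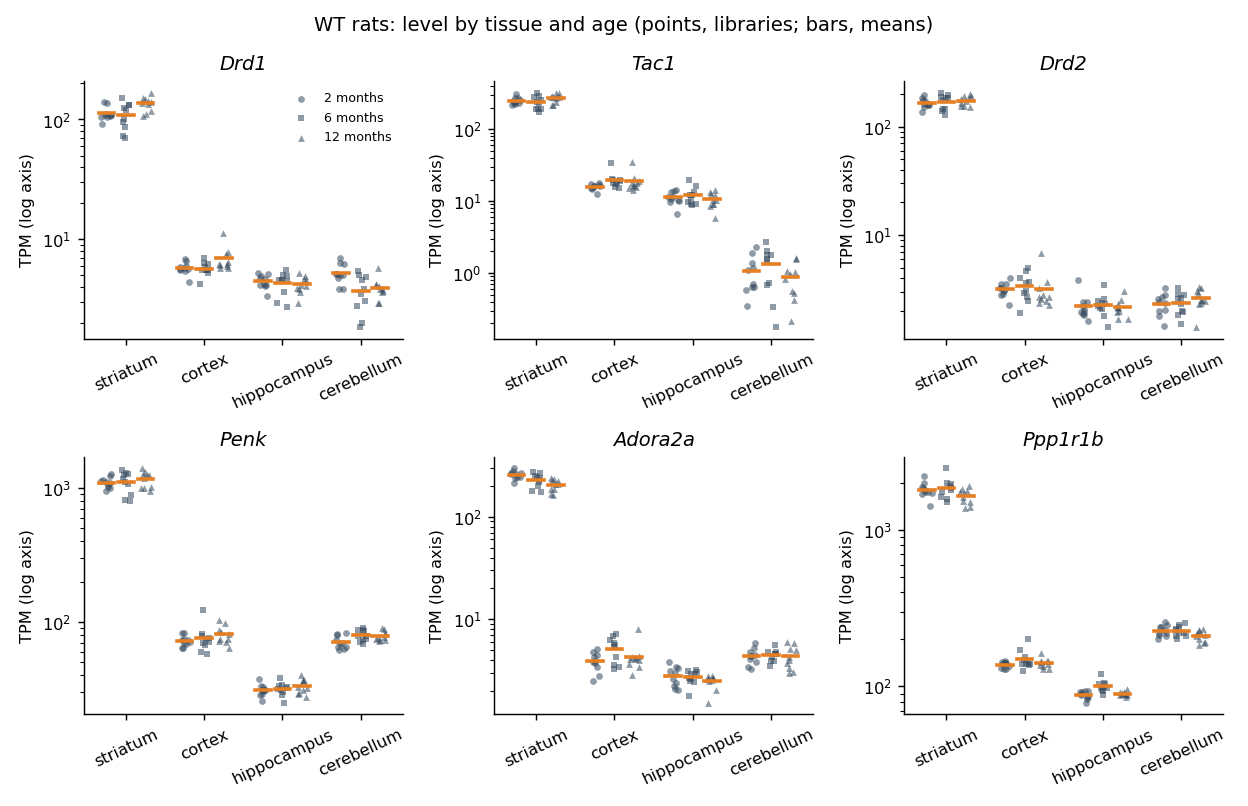
Level of each member in TPM (log axis) in WT striatum, cortex, hippocampus and cerebellum, with 1 point per library, marker shapes for 2, 6 and 12 months and bars for means of 10 libraries. Every striatal point of a member lies above every point of the other tissues, and the gap between means is narrowest for Ppp1r1b, whose cerebellar mean was 227.6 TPM at 2 months.

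Outside the striatum the members did not follow 1 order of tissues. In WT rats of 2 months Penk averaged 72.5 TPM in cortex and Tac1 15.9 TPM, whereas in cerebellum Tac1 was between 0.348 and 2.33 TPM in the 10 libraries. Ppp1r1b was above 200 TPM in all 10 WT cerebella of that age (200.1 to 259.9 TPM), and between 128.8 and 144.5 TPM in the 10 WT cortices. Drd1 and Drd2 averaged 5.79 and 3.16 TPM in WT cortex, and their ranges there overlapped those in WT cerebellum, so these neighbours in the order were not separated. Adora2a averaged 4.39 TPM in WT cerebellum.

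The letters upstream of the annotated starts are given for Drd2 and Tac1, of which Tac1 had the largest and Drd2 one of the smallest genotype estimates at 2 months, described further on, and whose windows lie outside any annotated span of their own gene. RefSeq promoters of the GRCr8 build were matched by symbol for 3 of the 6 members (Drd1, Drd2 and Tac1). The 250 bases before the start of Drd2 lie at chr8:58605153-58605402 and those before Tac1 at chr4:36645333-36645582, both on the plus strand. Capitals mark the motifs found, and a match on the minus strand reads CCGCCC (GC box) or CGTCA on the strand printed.
Drd2 upstream: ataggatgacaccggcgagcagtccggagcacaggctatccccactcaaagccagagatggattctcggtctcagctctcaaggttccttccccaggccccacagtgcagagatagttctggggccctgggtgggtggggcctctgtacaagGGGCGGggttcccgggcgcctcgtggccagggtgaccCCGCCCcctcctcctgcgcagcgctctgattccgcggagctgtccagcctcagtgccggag
Tac1 upstream: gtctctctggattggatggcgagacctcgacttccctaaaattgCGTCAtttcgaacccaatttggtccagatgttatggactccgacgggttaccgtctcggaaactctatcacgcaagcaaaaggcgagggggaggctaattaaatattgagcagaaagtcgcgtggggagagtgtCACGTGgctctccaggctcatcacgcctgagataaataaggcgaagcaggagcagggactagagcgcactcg
Motifs were searched on both strands over these 250 bases and the 50 after the start. The Drd2 window held 2 GC boxes (GGGCGG), with first bases 98 and 61 upstream of the start, a motif present in 33.1% of 33469 promoters of the same length. The Tac1 window held 1 TGACG, the core of a cyclic AMP response element, 206 bases upstream (21.2% of promoters) and 1 CACGTG E-box 72 bases upstream (6.42%). Neither window held TATAAA (14.2% of promoters) or the full TGACGTCA (1.83%), inside which TGACG lies. Nor did the window of Drd1, which lies inside an annotated span of its own gene. These are matches of letters in a window and no evidence of binding.

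At 2 months, 3 members were higher in Q130 than in WT striatum, namely the peptide precursors Tac1 and Penk and the signalling protein gene Ppp1r1b, 1.28-, 1.26- and 1.15-fold. The estimates of the 3 receptors Drd1, Drd2 and Adora2a lay above 0 as well but did not pass the test. The threshold parts near values, with an edgeR adjusted p of 0.0499 for Ppp1r1b and 0.0607 for Drd2. No test compared the receptors with the other members. In bulk tissue, a different number of medium spiny neurons and a different amount of RNA per cell cannot be told apart. Levels between genotypes are given in CPM, which scales each count by the library total, here adjusted by edgeR's TMM factors.

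Among the direct-pathway members, Tac1 had 147.4, 191.9 and 216.4 CPM in the lowest, median and highest of 10 Q130 striata, against 128.8, 144.9 and 175.9 CPM in 10 WT striata. All 10 Q130 libraries lay above the WT median and 8 lay above the highest WT library. Tac1 averaged 188.3 ± 21.5 CPM in Q130 and 148.0 ± 15.7 CPM in WT striata (SD, n = 10 each). Its log2 fold change was 0.35 with an SE of 0.07 (edgeR quasi-likelihood test, Benjamini-Hochberg adjusted p = 0.015). Drd1 had 126.1, 166.6 and 181.6 CPM in the lowest, median and highest Q130 striata, against 117.2, 136.1 and 174.4 CPM in WT striata. The groups overlapped, with 9 of 10 Q130 libraries above the WT median and 3 above the highest WT library. The log2 fold change of Drd1 was 0.22 with an SE of 0.07, which did not pass (edgeR adjusted p = 0.0762).

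Among the indirect-pathway members, Penk was the most variable in Q130. It had 816.6, 1027.0 and 1296.3 CPM in the lowest, median and highest Q130 striata, against 743.8, 828.7 and 941.0 CPM in WT striata. Of the Q130 libraries 9 lay above the WT median and 7 above the highest WT library. Penk averaged 1046.9 ± 173.8 CPM in Q130 and 834.2 ± 70.5 CPM in WT striata (SD, n = 10 each). Its log2 fold change was 0.33 with an SE of 0.08 (edgeR adjusted p = 0.0412). Drd2 averaged 276.9 ± 17.9 CPM in Q130 and 243.1 ± 26.2 CPM in WT striata (SD, n = 10 each). All 10 Q130 libraries lay above the WT median for Drd2 but 3 above the highest WT library, and its log2 fold change of 0.19 (SE 0.05) did not pass (edgeR adjusted p = 0.0607). Adora2a averaged 412.4 ± 44.3 CPM in Q130 and 360.8 ± 34.1 CPM in WT striata (SD, n = 10 each), with 8 of 10 Q130 libraries above the WT median. Its log2 fold change was 0.19 with an SE of 0.06 (edgeR adjusted p = 0.0929).

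Ppp1r1b, which serves both pathways, had 1779.7, 2115.0 and 2183.9 CPM in the lowest, median and highest Q130 striata, against 1411.4, 1758.7 and 2085.3 CPM in WT striata. All 10 Q130 libraries lay above the WT median and 5 above the highest WT library. It averaged 2057.9 ± 144.2 CPM in Q130 and 1783.7 ± 194.1 CPM in WT striata (SD, n = 10 each). Its log2 fold change of 0.21, with an SE of 0.06, only just passed (edgeR adjusted p = 0.0499).

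The 3 members called compare with 2.64% of the 15747 genes tested called in either direction and 1.11% called higher. The median log2 fold change of the members was 0.21, and that of all genes tested was -0.00. Tac1 was called whichever of the 20 libraries was left out (edgeR adjusted p of at most 0.0378), Penk in 6 of these 20 fits and Ppp1r1b in 5. Drd2 was also called in 5 of them, Drd1 in 3 and Adora2a in 2. Leaving out Q130 male 5 brought all 6 members past the threshold, leaving out Q130 female 1, WT female 1 or WT female 5 brought 5, and leaving out any of 14 others kept 1. The share of all genes called moved in the same fits, to 7.24% without Q130 male 5, between 3.79% and 3.87% in the fits with 5 members and between 0.551% and 2.56% in those with 1. All 6 were called by DESeq2 with the same libraries, where 8.31% of the genes with an adjusted p were called, and none in a single fit over the 60 striatal libraries of all ages, where 0.00613% were. These genes were proposed with earlier results of these data known, so the count is no independent evidence of a direction.

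**Figure D2:**
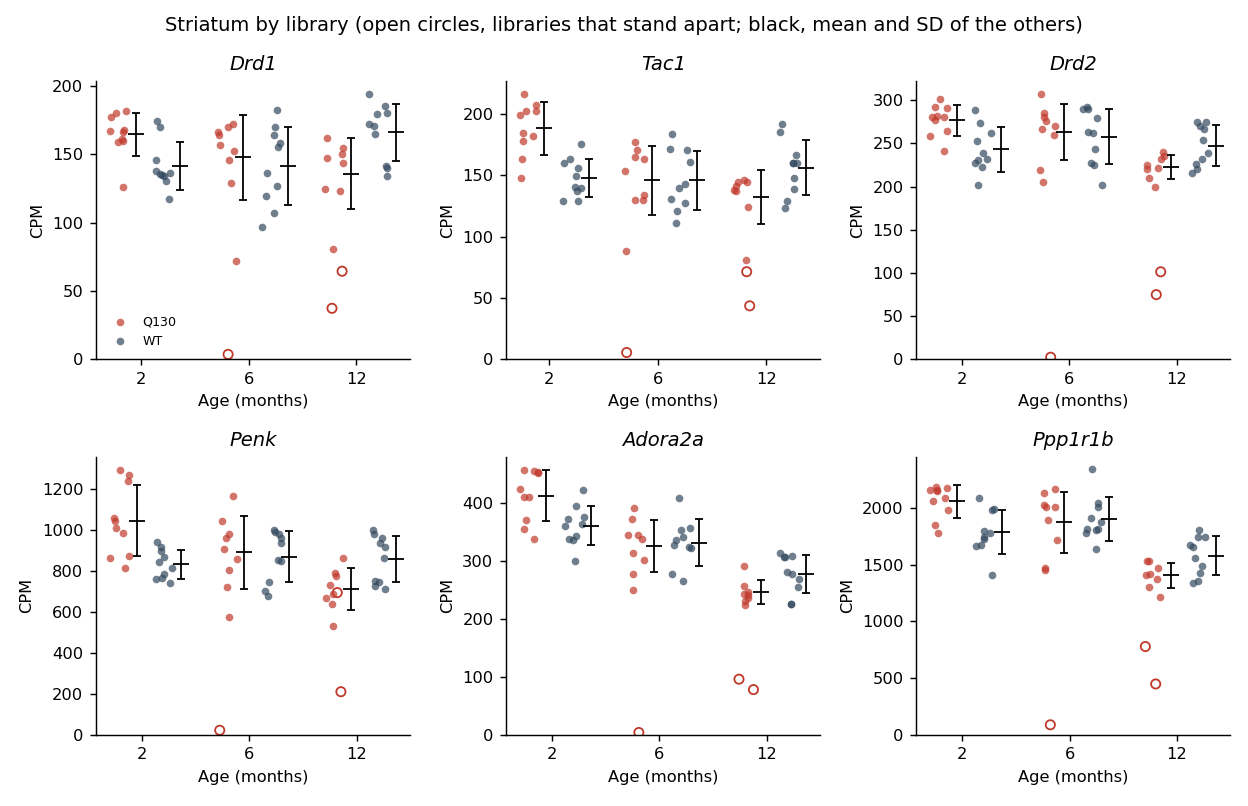
CPM of each member in every striatal study library at 2, 6 and 12 months, Q130 left of WT at each age. Open circles are the 3 libraries that stand apart and black marks are the mean and SD of the other libraries. At 2 months most Q130 points lie in or above the upper part of the WT range (Tac1 averaged 188.3 CPM in Q130 and 148.0 CPM in WT), and at 12 months most lie in or below its lower part.

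Other striatal genes were also mostly above 0 at 2 months. Of 90 other measured genes enriched in striatum (mean log2 CPM higher than in each of the other tissues by 2 or more in WT rats of 6 months), 81 had estimates above 0, 13 were called higher and 0 lower, with a median of 0.14. Of 23 measured cortex-enriched genes 18 had estimates below 0, with a median of -0.24, and of 42 hippocampus-enriched genes 28 did, with a median of -0.07. The summed level of the cortex-enriched list ran between 187.4 and 220.3 CPM in Q130 striata and between 193.8 and 240.2 CPM in WT striata, and that of the hippocampus-enriched list between 165.1 and 195.8 CPM in Q130 and between 171.9 and 225.2 CPM in WT. The share of other tissue in a dissected piece moves with such sums, and its part in the result was not tested. Marker lists by symbol, for interneurons, glia and vessels, were not used here, since the identifiers were not paired with symbols.

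At 6 months no member passed the test between genotypes. In the edgeR fit 0 of 15812 genes were called (0%), 0 members had an unadjusted p under 0.05, and limma-voom and DESeq2 also called 0 members. With all libraries the log2 fold changes ran between -0.18 and -0.10, with 95% confidence intervals as wide as -0.98 to 0.61 for Adora2a. On the same libraries limma-voom gave -0.67 to -0.47 and limma on log2(TPM + 1) gave -0.63 to -0.46. The library of Q130 male 1, which stands apart, held little of any member. In it Drd1 had 3.46 CPM, Drd2 2.16, Penk 22.2, Tac1 5.37, Adora2a 3.95 and Ppp1r1b 88.1 CPM. Without it the estimates ran between -0.03 and 0.05 (adjusted p of 0.988 to 0.997, 1 of 15857 genes called, 0.00631%). Tac1 then averaged 145.8 ± 28.03 CPM in 9 Q130 striata and 145.8 ± 24.5 CPM in 10 WT striata (SD), and Penk 892.6 ± 177.4 CPM in Q130 and 870.9 ± 124.1 CPM in WT. The 95% intervals of the difference were then -0.24 to 0.20 for Tac1, -0.18 to 0.22 for Penk and -0.24 to 0.35 for Drd1. The lowest remaining Q130 library for Drd1, male 5, had 72.1 CPM, against 96.7 CPM in the lowest WT library. It also lay below the lowest WT library for Penk (574.0 against 676.8 CPM) and Tac1 (88.4 against 111.1 CPM). So it did for Adora2a (249.5 against 265.9 CPM) and Ppp1r1b (1448.0 against 1634.0 CPM), but not for Drd2 (205.4 against 201.8 CPM). Most members were thus low in 1 Q130 striatum that did not stand apart, picked here as the lowest for Drd1. It does not describe the group, whose means are given above.

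At 12 months all 6 estimates lay below 0, and none passed the test (edgeR, 0 of 15658 genes called, 0%; 3 members at an unadjusted p under 0.05; 0 members by limma-voom or DESeq2). The share of all genes at that unadjusted p is not given here, so the 3 describe the members only. With all libraries the log2 fold changes were -0.49 for Drd1, -0.42 for Tac1, -0.39 for Penk, -0.37 for Adora2a and -0.34 for Drd2 and Ppp1r1b, each with an edgeR adjusted p of 0.496. The libraries of Q130 female 2 and male 3, which stand apart, were the lowest in all members but Penk, for which female 2 alone was, at 210.6 CPM. Without both, all 6 estimates moved towards 0, between -0.30 and -0.15, and 1 of 15740 genes was called (0.00635%).

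Penk then had 533.8, 708.6 and 866.4 CPM in the lowest, median and highest of 8 Q130 striata, against 711.7, 890.9 and 1000.2 CPM in 10 WT striata. All 8 lay below the WT median and 4 below the lowest WT library. Its log2 fold change was -0.27 with an SE of 0.09 (95% interval -0.45 to -0.09), at an unadjusted p of 0.00518 in the edgeR fit and an adjusted p of 0.267. Drd1 had 80.6, 145.7 and 161.7 CPM in the lowest, median and highest Q130 striata, against 134.2, 171.3 and 194.1 CPM in WT striata. All 8 lay below the WT median and 3 below the lowest WT library, with a log2 fold change of -0.30 and an SE of 0.11 (edgeR adjusted p = 0.306). For Tac1, Drd2 and Ppp1r1b all 8 also lay below the WT median, and for Adora2a 7 of 8, with log2 fold changes of -0.24, -0.15, -0.16 and -0.17. Unadjusted p-values of the 6 ran between 0.00518 and 0.0367 in the edgeR fit, and none held after adjustment over all genes. How many of all genes had p-values as low is not given here, so these values describe the members only.

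**Figure D3:**
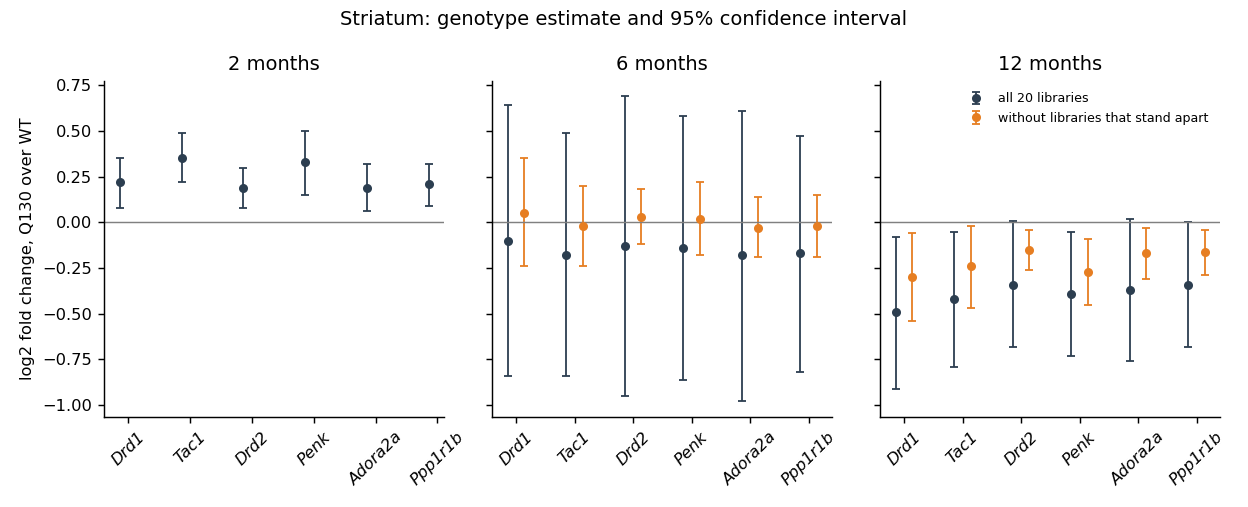
Log2 fold change of Q130 over WT striatum with its 95% confidence interval for each member at 2, 6 and 12 months, with all 20 libraries and, at 6 and 12 months, without those that stand apart. Estimates lie above 0 at 2 months (0.19 to 0.35), near 0 at 6 months without male 1 (-0.03 to 0.05) and below 0 at 12 months (-0.30 to -0.15 without the libraries that stand apart), with far narrower intervals once those are left out.

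Other striatal genes were mostly below 0 at 12 months. Of 85 other striatum-enriched genes (listed from WT rats of 2 months), 70 had estimates below 0 at 12 months without the libraries that stand apart, with a median of -0.09 and 0 called, and with all libraries 79 did, with a median of -0.27. The summed level of hippocampus-enriched genes reached 1048.8 CPM in 1 Q130 striatum that stands apart, and ran between 164.3 and 187.4 CPM in the other 8 Q130 striata and between 149.0 and 193.3 CPM in WT striata. In the other Q130 striatum that stands apart, male 3, cortex-enriched genes summed to 522.6 CPM and cerebellum-enriched genes to 4211.5 CPM, against 194.8 to 238.1 CPM and 3011.1 to 3321.1 CPM in WT striata. The part of these other tissues in the result was not tested, and without both libraries the 6 estimates were still below 0.

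Whether the genotype difference itself changed with age was tested in 1 fit over the 60 striatal libraries. The difference at 12 months minus that at 2 months was below 0 for all 6 members (-0.78 to -0.53 on the log2 scale) but none passed with all libraries (edgeR adjusted p of 0.143 to 0.405; 3 at an unadjusted p under 0.05; 11 of 16301 genes called, 0.0675%; 0 members by limma-voom). The share of all genes at that unadjusted p is not given here. Without the 3 libraries that stand apart, all 6 passed as lower, where 4.71% of 16338 genes were called in either direction and 2.24% as lower. The values were -0.60 for Penk (edgeR adjusted p = 0.0125), -0.59 for Tac1 (0.0161), -0.52 for Drd1 (0.049), -0.37 for Ppp1r1b (0.0278), -0.36 for Adora2a (0.0381) and -0.34 for Drd2 (0.0278). Leaving out 1 of the 3 libraries at a time, an alternative chosen after seeing the data, gave 2 members called without male 1 of 6 months (Penk and Tac1, edgeR adjusted p = 0.0317 each) and 0 without female 2 or male 3 of 12 months. The shares of all genes called in these left-out fits are not given here, so their counts describe the members only. No member passed for 6 minus 2 months or 12 minus 6 months, with or without these libraries, by edgeR (0% of genes called, and 0.447% for 6 minus 2 months without them). At 2 months each genotype comparison lies within batch 1 and at 12 months within batch 2, so a batch that acted on the genotypes unequally and an age effect cannot be told apart here.

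Ratios between members of the pathways, given here without a test, overlapped between genotypes at each age. The log2 TPM ratio of Drd2 over Drd1 averaged 0.53 ± 0.10 in Q130 and 0.56 ± 0.11 in WT striata at 2 months (SD, n = 10 each). At 6 months it was 0.64 ± 0.26 in 9 Q130 and 0.66 ± 0.19 in 10 WT striata. At 12 months it was 0.52 ± 0.26 in 8 Q130 and 0.36 ± 0.09 in 10 WT striata. The differences at 2 and 6 months were within 1 SD of either genotype, and that at 12 months was within the SD of the Q130 libraries but beyond that of the WT libraries. The ratio of the peptides, Penk over Tac1, was 2.10 ± 0.13 in Q130 and 2.13 ± 0.11 in WT at 2 months and 2.07 ± 0.16 in Q130 and 2.10 ± 0.16 in WT at 12 months. Adora2a over Drd1 was 1.17, 1.02 and 0.73 in Q130 striata at 2, 6 and 12 months, against 1.20, 1.09 and 0.58 in WT striata, without the libraries that stand apart. It was thus lower at 12 months than at 2 months in both genotypes, across the change of batch.

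In WT striatum the members varied together from animal to animal. Over the 30 WT striatal libraries, after subtracting the mean of each age and sex, Pearson's r of log2 CPM between members ran from 0.63 (Penk with Tac1) to 0.91 (Drd2 with Ppp1r1b). Among 14049 genes, Ppp1r1b was the 3rd most like Drd2, and Drd2 the 8th most like Ppp1r1b and the 5th most like Adora2a (r = 0.84). Drd1 was most like Ppp1r1b among the members (0.85), and least like Adora2a (0.64). Between 5.76% and 12.5% of all genes had r above 0.5 with a given member, and the other members ranked between 3rd and 928th in likeness to it. The libraries share a dissection and a depth, and these values are a description. The genes with the highest likeness are not named, since their identifiers were not paired with symbols.

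In cortex, hippocampus and cerebellum no member differed between genotypes at any age by edgeR. The share of genes called was at most 1.48% (cerebellum, 12 months), with 0.0709% in cerebellum at 6 months, 0.00636% in cortex at 2 months and 0% in the other fits with all libraries. Without the libraries that stand apart it was 0.0127% in cerebellum at 2 months and 0.00632% in cortex at 6 months. In cortex the log2 fold changes ran between -0.02 and 0.14 at 2 months, between -0.27 and -0.05 at 6 months and between -0.18 and 0.06 at 12 months. Without WT male 4 the 6-month range was -0.17 to 0.03, and without Q130 male 4 the 12-month range was -0.17 to -0.08. In cerebellum they ran between -0.06 and 0.15, between -0.30 and 0.38 and between -0.06 and 0.28 at the 3 ages (-0.08 to 0.34 at 2 months without Q130 males 1 and 2), with Tac1 low there in both genotypes (0.635 ± 0.376 CPM in Q130 and 0.566 ± 0.337 CPM in WT at 2 months, SD, n = 10 each). In hippocampus at 2 months Ppp1r1b averaged 83.0 ± 10.6 CPM in Q130 and 77.1 ± 3.74 CPM in WT (SD, n = 10 each). Of the Q130 libraries 6 lay above the highest WT library and 1 below the lowest. For the other members between 0 and 2 lay above the highest. At 12 months Ppp1r1b averaged 80.1 ± 5.89 CPM in Q130 and 79.8 ± 3.42 CPM in WT hippocampi. The log2 fold changes in hippocampus at 6 months ran between 1.14 and 2.30, and between -0.05 and 0.10 without male 3 and male 5. Male 5 is the hippocampal library that correlated better with striatum, and it held 1848.4 CPM of Ppp1r1b, 694.4 of Penk, 340.6 of Adora2a, 233.2 of Drd2, 145.2 of Tac1 and 116.4 of Drd1.

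The genotype difference in striatum minus that in cortex of the same animals lay above 0 for all 6 members at 2 months (0.07 to 0.37 on the log2 scale) but none passed, where 0 of 16101 genes did (edgeR adjusted p of 0.422 to 0.948; 2 members at an unadjusted p under 0.05; 0 by limma-voom). The 2-month difference is therefore not shown to be larger in striatum than in cortex. The share of all genes at the unadjusted p is not given here. At 6 and 12 months none passed either, with or without the libraries that stand apart, with adjusted p-values of 0.511 or more and 0% of genes called (0.0125% at 12 months without those libraries).

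Between 2 and 6 months, both in batch 1, no member changed in WT striatum (edgeR, DESeq2 and limma-voom, 0 at an unadjusted p under 0.05), where 16.9% of 15785 genes were called. In Q130 striatum none passed with all libraries (7.59% of genes called). Without male 1 of 6 months Tac1 fell by 0.39 on the log2 scale (edgeR adjusted p = 0.0119) and Adora2a fell by 0.34 (adjusted p = 0.00485), where 8.53% of 15794 genes were called lower and 18.1% in either direction. Tac1 was 145.8 ± 28.03 CPM in 9 Q130 striata of 6 months and 188.3 ± 21.5 CPM in 10 of 2 months (SD). Adora2a was 325.6 ± 45.03 CPM at 6 months and 412.4 ± 44.3 CPM at 2 months. The same comparison in WT rats did not pass, and the difference between genotypes in this change, tested above, did not pass either.

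Elsewhere in WT rats 1 member passed with age in cerebellum and 1 in hippocampus, shares of the 6 members no higher than those of all genes called there. Drd1 in cerebellum averaged 4.11 ± 1.46 CPM at 6 months and 5.86 ± 1.15 CPM at 2 months (SD, n = 10 each) and fell by 0.53 on the log2 scale (edgeR adjusted p = 0.0144; 10.6% of genes called lower and 19.1% in either direction). Ppp1r1b in hippocampus averaged 88.8 ± 7.43 CPM at 6 months and 77.1 ± 3.74 CPM at 2 months (SD, n = 10 each) and rose by 0.21 (edgeR adjusted p = 0.00193; 9.31% of genes called higher and 17.1% in either direction). Tac1 in cortex was 10.1 ± 0.97 CPM in 9 WT rats of 6 months and 8.67 ± 0.81 CPM in 10 of 2 months (SD) without male 4, which stands apart, and rose by 0.22 in that fit (edgeR adjusted p = 0.0315; 4.81% of genes called higher and 10.6% in either direction). With all libraries no member passed in WT cortex (3.54% called). In Q130 rats no member passed in cortex (8.74% of genes called), hippocampus (1.01%) or cerebellum (6.63%), nor without the libraries that stand apart (4.25% in hippocampus and 15.1% in cerebellum).

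For 12 months the 12 second libraries offer a comparison within batch 2. Since 10 of the 12 match another animal than the one labelled, all 12, from males of 2 and 6 months and both genotypes, were pooled and set against the 10 male striata of 12 months, a comparison chosen after seeing the data. Adora2a was lower at 12 months, with 95.9, 251.3 and 313.9 CPM in the lowest, median and highest libraries, against 297.5, 335.8 and 434.1 CPM in the second libraries of the younger males. The median at 12 months lay below the lowest younger library, and the ranges overlapped. It averaged 247.3 ± 62.0 CPM at 12 months (SD, n = 10) and 348.6 ± 44.0 CPM at the younger ages (SD, n = 12), a log2 fold change of -0.49 with an SE of 0.13 (edgeR adjusted p = 0.0117), where 9.24% of 15443 genes were called lower and 22.4% in either direction. Without male 3, which stands apart, it was -0.40 with an SE of 0.07 (adjusted p = 0.000282; 17.6% of genes called lower and 35.2% in either direction).

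Ppp1r1b averaged 1547.8 ± 159.9 CPM at 12 months (SD, n = 9) and 1755.3 ± 188.8 CPM at the younger ages (SD, n = 12) without male 3, and fell by 0.18 on the log2 scale (edgeR adjusted p = 0.0306), but did not pass with it (-0.25, adjusted p = 0.0756). Drd1, Drd2, Penk and Tac1 did not pass, with log2 fold changes of -0.04, -0.12, -0.20 and -0.15 with all libraries. Going by the labels of the second libraries, no member passed for 12 minus 2 months (4.76% of genes called) or 12 minus 6 months (8.36%). Without male 3 Adora2a alone passed in both, at -0.44 (edgeR adjusted p = 0.00419; 10.7% of genes called lower, 20.9% in either direction) and -0.36 (0.00853; 12.7% lower, 25.7% in either direction).

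**Figure D4:**
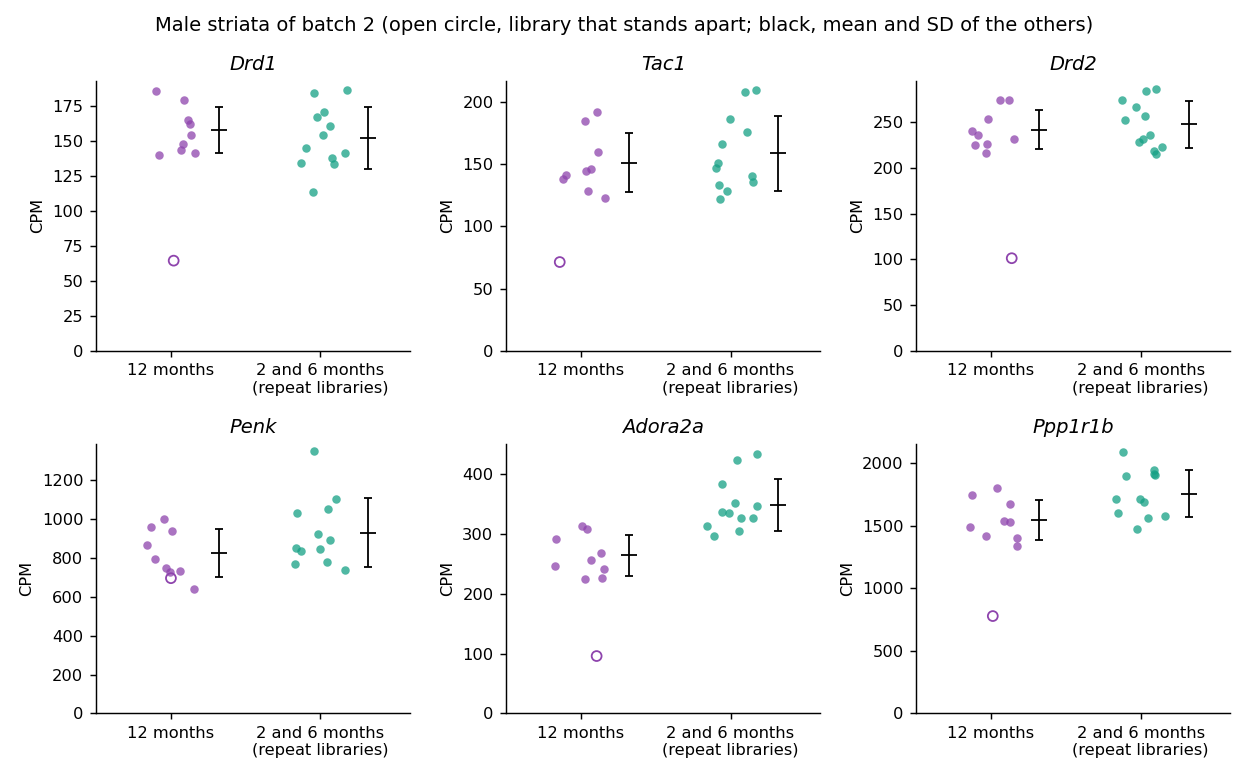
CPM of each member in male striata sequenced in batch 2, with the 10 study libraries of 12 months left of the 12 second libraries of 2 and 6 months. The open circle is male 3, which stands apart, and black marks are the mean and SD of the others. The Adora2a points of 12 months (mean 264.1 CPM without male 3) lie mostly below those of the younger males (348.6 CPM), while the Drd1 points overlap widely.

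The second libraries also show how far a repeated measurement of a member moves. Against the first library of the animal that matched best, the median size of the log2 difference over 12 pairs was 0.04 for Drd1 and Drd2, 0.05 for Adora2a, 0.06 for Penk and Tac1 and 0.15 for Ppp1r1b. Against the first library of the labelled animal it was 0.15 for Drd1 and Adora2a, 0.10 for Drd2, 0.15 for Penk, 0.29 for Tac1 and 0.14 for Ppp1r1b. The second library labelled WT, 2 months, male 1, for example, had 1351.4 CPM of Penk, against 870.2 CPM in the first library of the animal it is labelled as and 1296.3 CPM in that of its best match, a Q130 rat of 2 months. By label no member differed between second and first libraries by edgeR (4.1% of 15425 genes called) or limma-voom. In the edgeR fit 1 member had an unadjusted p under 0.05. DESeq2 called 1, Ppp1r1b at -0.16 with an edgeR adjusted p of 0.116. The shares of all genes for both counts are not given here.

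No difference between the sexes was detected. No member differed between male and female striata at 2, 6 or 12 months (edgeR, with 0.159%, 0.12% and 0.0383% of genes called; also 0 by DESeq2 and limma-voom). The 6-month estimates ran between -0.42 and -0.15 with all libraries and between -0.27 and -0.00 without male 1, where 3 members had an unadjusted p under 0.05 and 0.441% of genes were called. How many of all genes had an unadjusted p under 0.05 is not given here. At 12 months without female 2 and male 3 the share of genes called was 0.693%. Drd1 at 6 months averaged 126.3 ± 33.3 CPM in male and 156.7 ± 12.7 CPM in female WT striata (SD, n = 5 each). The genotype difference in males minus that in females, averaged over ages, ran between -0.03 and 0.10, and none passed (edgeR adjusted p of 1.0; 0 at an unadjusted p under 0.05; 0 by limma-voom; 0% of genes called).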

How the data were processed

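Total RNA from flash-frozen tissue was purified with a Qiagen kit and sequenced as Illumina libraries, per the labels' protocols. Which aligner, counter and build were used is not given in the sources used here. Expected counts per gene were deposited by the authors, 8.19% of them not whole, and were rounded to whole numbers. The authors also deposited a table on the TPM scale, in which each column sums to 1000000 although it is named as FPKM. The second libraries of 12 animals were recognised from the form of their column names.

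The members and lists were chosen with earlier results of these data known. Fits ran over the whole table in R 4.3.3 with edgeR 4.0.16 (filterByExpr, TMM, robust quasi-likelihood F test, sex as a covariate). P-values were Benjamini-Hochberg adjusted over all genes, and an adjusted p under 0.05 was called. Counts of members at an unadjusted p under 0.05 are given without the share of all genes, and are a description only. Alternatives used limma 3.58.1 (voom, and log2(TPM + 1) with genes of a mean of at least 1 TPM), DESeq2 1.42.0, RLE size factors, no filter on low counts, no sex covariate, 1 fit over 60 libraries, first and second libraries summed, and each library left out in turn. Levels in CPM are library totals scaled by TMM. The code was tested on simulated data. The named genes are the 6 members, and likeness was ranked by Pearson's r. Planned lists of other medium spiny neuron genes and of cell type markers could not be matched, since 0 identifiers were found in the reference names.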

Additional observations from a re-analysis of the deposited data

Results flagged for a closer look

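In 30 of 144 groups of a member in a tissue, age and genotype (20.8%), the highest or lowest of the 10 libraries lay farther from its neighbour than Dixon's criterion allows, where chance gives about 1 group in 20. Of these values, 18 belong to libraries that stand apart and 12 to others.

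The pair of libraries of 1 Q130 animal of 6 months accounts for 11. In the one labelled striatum (male 1) the members were low, with 2.16 CPM of Drd2, 22.2 of Penk, 5.37 of Tac1, 3.95 of Adora2a and 88.1 of Ppp1r1b. In the one labelled hippocampus (male 5) they were high, with 116.4 CPM of Drd1, 233.2 of Drd2, 694.4 of Penk, 145.2 of Tac1, 340.6 of Adora2a and 1848.4 of Ppp1r1b.

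Another 7 values lie in libraries that stand apart. Penk was low in the Q130 striatum of 12 months, female 2, at 210.6 CPM. WT cortex of 6 months, male 4, was high in Penk (117.9 CPM), Tac1 (25.1) and Ppp1r1b (250.2). Adora2a was high in Q130 cortex of 12 months, male 4 (13.2 CPM). Q130 cerebellum of 2 months, male 2, was high in Penk (72.3 CPM) and Ppp1r1b (335.9).

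Of the remaining 12, 4 lie in WT cortex of 12 months, male 5, which was high in Drd1 (13.3 CPM), Drd2 (9.38), Tac1 (19.5) and Adora2a (10.6). In striatum the only such value was a low Drd1 in Q130 male 5 of 2 months (126.1 CPM). In cortex of 2 months Ppp1r1b was high in Q130 male 4 (163.8 CPM) and Tac1 was low in WT male 1 (6.68 CPM). In hippocampus of 2 months Adora2a was high in Q130 female 4 (5.45 CPM) and Drd2 in WT male 5 (4.86 CPM). In cerebellum Tac1 was high in Q130 female 2 of 6 months (1.74 CPM), Drd1 was high in WT female 1 of 12 months (6.33 CPM) and Drd2 was low in WT male 5 of 12 months (1.82 CPM).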

How the results depend on the processing

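The 2-month genotype result depended most on the processing. Of 6 members, 6 passed with DESeq2 (8.31% of all genes called), and 3 with limma-voom (2.75%), RLE size factors (2.57%) or no sex covariate (2%). With the replicate block 2 passed (1.67%). That block pairs libraries by replicate number alone. Same-numbered libraries had r above 0.1 in 0, 3 and 0 of 10 pairs at the 3 ages, with a highest r of 0.294 at 6 months. On the log2(TPM + 1) scale (0.921%) or with no filter on low counts (1.35%) 1 passed. In 1 fit over 60 libraries 0 passed (0.00613%), and 0 with first and second libraries summed by label (0.609%). Chosen after seeing the data, the first libraries of the repeated animals gave 0 (0.0127%) and their second libraries 0 (0.0129%). Leaving out 1 library gave 1 to 6 (0.551% to 7.24%). The fits on first or second libraries of the repeated animals held 3 Q130 and 3 WT libraries each, fewer than the other fits. By their best matches 6 of the 12 second libraries carry the other genotype's label, so the summed and second-library values may mix genotypes. Of the second libraries labelled Q130 of 2 months, 0 matched best with a Q130 library of 2 months. Genotype by age (12 minus 2 months) gave 6 without the libraries that stand apart and 0 to 2 with 1 of them left out. Without those libraries, the counts were 2 for age in Q130 striatum, 1 for age in WT cortex, 2 for 12 months against 2 and 6 months together, and, by label, 1 for 12 minus 2 months and 1 for 12 minus 6 months within batch 2 (1 by DESeq2 for 12 minus 2, and 0 to 1 with each library left out). Second minus first libraries gave 1 with DESeq2 and 0 with each left out. Shares of all genes called are not given for the genotype-by-age fits with 1 library left out. Nor are they given for the DESeq2 and left-out fits within batch 2 and of second minus first libraries. Those counts describe the members only.

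Some directions turned. In second libraries of 2 months Adora2a was -0.01, and Penk and Tac1, the largest estimates in the study libraries, were -0.03 and -0.17, under labels of which the data go against 10 of 12 in all. With each library left out in turn the 6-month values ran between -0.19 and 0.05 for Drd1, -0.19 and 0.03 for Drd2 and -0.21 and 0.02 for Penk. At 6 months the first libraries of the repeated animals alone gave 0.08 for Adora2a, 0.22 for Drd1, 0.11 for Drd2, 0.04 for Penk and 0.06 for Ppp1r1b. The second libraries of that age, by label, gave 0.08 for Adora2a. Leaving out Q130 male 1 from the study libraries gave 0.05 for Drd1, 0.03 for Drd2 and 0.02 for Penk. Drd1 within batch 2 became 0.03 (12 minus 2 months), 0.06 (12 minus 6 months) and 0.05 (together) without male 3, and ran between -0.10 and 0.03 and between -0.09 and 0.06 with each library left out, and its second-minus-first value became -0.02 without WT male 5 of 6 months. The cause was not tested. All other counts of members were unmoved by the alternatives run, and the 12-month genotype estimates stayed below 0 in all of theirs.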
